A study of Mus musculus with 12 samples.

Results

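The Gsdmc genes of the mouse form a row of near-identical copies on chromosome 15, and 9 genes around them were followed here through colonic crypts. They were the copies Gsdmc, Gsdmc2, Gsdmc3 and Gsdmc4, the related gasdermin Gsdmd, the type 2 response gene Retnlb, and the receptor and signalling genes Il4ra, Il13ra1 and Stat6. All 9 symbols were found among the 55471 rows of the count table, and all 9 passed the filter on low counts that left 14610 genes to test. The genes were picked with earlier results of these libraries in view, because Gsdmc2 and Gsdmc4 were higher in CBPAA than in CBPWT crypts when p53 was intact. Values from that comparison are therefore given as a description, without a p-value. The comparison of the same CBP genotypes after loss of p53 uses other mice and was tested.

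The libraries came from colonic crypts of female C57BL/6J mice aged 8 weeks, released from the tissue with 30 mM EDTA, with 3 mice in each of 4 groups and 1 library per mouse. CBPWTp53-floxed mice carried wild type CBP, and CBPAAp53-floxed mice carried a germline knock-in that turns 2 serines of CBP into alanine in every cell of the body. Both of these groups had floxed p53 alleles that were left intact. CBPWTp53ΔIEC and CBPAAp53ΔIEC mice carried the same floxed alleles and Villin-Cre, which deletes p53 in intestinal epithelial cells, so p53 stayed intact in other cell types. RNA was measured in bulk by poly(A) sequencing, and fewer cells of a type and less RNA per cell cannot be told apart in any value below.

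Gasdermins are pore-forming proteins. Proteases such as caspases cut them, and the released N-terminal part inserts into the plasma membrane. Gsdmd is the best known member and acts downstream of inflammasomes. In the intestinal epithelium the cytokines IL-4 and IL-13 bind a receptor made of Il4ra and Il13ra1 and act through the transcription factor Stat6. This type 2 response is known from worm infection, where goblet cells secrete Retnlb (resistin-like beta) and the Gsdmc copies rise.

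The copies are shown by sequence because their likeness bears on how reads were assigned to them. Gsdmc2 and Gsdmc3 shared 97.09% of 1443 coding bases and differed at 42, and either of them differed from Gsdmc4 at 89 aligned bases (93.81% identity). Gsdmc was farther away, with 86.98% to 88.14% identity to the others. The 3 stretches below are coding bases 968 to 1087 of Gsdmc2, Gsdmc3 and Gsdmc4, read from the GENCODE vM21 transcripts and placed on the minus strand of GRCm38, at chr15:63826168-63826287, chr15:63859595-63859714 and chr15:63893121-63893240. The window was chosen because no other of 120 bases differed at more positions, and capitals mark the 10 positions at which the copies differ.
Gsdmc2: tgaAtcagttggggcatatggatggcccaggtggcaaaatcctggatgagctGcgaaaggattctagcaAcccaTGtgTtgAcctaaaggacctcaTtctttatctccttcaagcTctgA
Gsdmc3: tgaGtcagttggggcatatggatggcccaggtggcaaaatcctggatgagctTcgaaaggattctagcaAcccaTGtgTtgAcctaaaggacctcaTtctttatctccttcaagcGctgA
Gsdmc4: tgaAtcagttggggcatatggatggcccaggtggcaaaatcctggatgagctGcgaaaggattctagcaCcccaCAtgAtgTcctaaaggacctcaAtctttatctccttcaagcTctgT
Within this window Gsdmc2 and Gsdmc3 differed at 3 positions, Gsdmc2 and Gsdmc4 at 7, and Gsdmc3 and Gsdmc4 at 10. The first 120 coding bases differed at 2 positions only. Of all windows of 50 bases in the transcripts, 48.66% for Gsdmc2, 53.97% for Gsdmc3 and 61.0% for Gsdmc4 occurred in no other copy, and with windows of 100 bases the shares were 71.4%, 71.56% and 79.76%. Reads from the remaining windows could not be assigned to 1 copy by sequence, so values of single copies are uncertain where the counting could split them, and the summed value of the 3 copies is given beside them.

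The 4 copies lie on the minus strand of chromosome 15 between positions 63775968 and 63912297 (GRCm38), in the order Gsdmc, Gsdmc2, Gsdmc3 and Gsdmc4. Gsdmd is on the same chromosome at 75862327 to 75867408 and Retnlb on chromosome 16 at 48816856 to 48818892, both on the plus strand. Il4ra (chromosome 7, 125552120 to 125579474), Stat6 (chromosome 10, 127642986 to 127660957) and Il13ra1 (chromosome X, 36112110 to 36171259) are also on the plus strand. Il4ra overlaps the antisense gene Gm44876 and Stat6 overlaps Nab2 on the other strand, and whether the counting used strand is not given in the sources used here.

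Promoter sequence of RefSeq (GRCm38.p6, 250 bases before to 50 after the start) was at hand for 4 of the 9 genes, Gsdmc3, Stat6, Il4ra and Il13ra1. None of the 4 held TTC and GAA with 4 bases between them, the spacing bound by STAT6, or with 3 bases between them, the spacing of other STAT proteins. Both motifs read the same on either strand. Of all 32851 promoters, 6.95% held the first and 8.3% the second, so the absence of these letters from 4 windows is a description and says nothing of the factor.

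Total counts ran from 11177430 to 18029125 per library. Trp53, the deleted gene, lay between 23.3 and 33.5 TPM in the 6 libraries with intact p53 and between 3.26 and 6.13 TPM in the 6 ΔIEC libraries, and the groups did not overlap. It fell by 2.64 ± 0.22 (log2 fold change ± SE) in CBPWT and by 2.58 ± 0.22 in CBPAA crypts (edgeR quasi-likelihood test, Benjamini-Hochberg adjusted p = 0.000375 and 0.000401). Crebbp, which encodes CBP, was at 5.98 to 11.5 TPM, and counts per gene cannot show the exchanged codons. Epithelial genes such as Krt8 (4315 to 6169 TPM) and Lgals4 (3749 to 6755 TPM) were high in every library, whereas the fibroblast gene Col1a1 did not pass 0.149 TPM. Genes of Paneth cells, which belong to the small intestine, set some libraries apart. The summed TPM of Defa17, Defa24, Defa30 and Lyz1 was 0 to 0.361 in CBPWTp53-floxed crypts, 3.72, 823 and 31.5 in CBPAAp53-floxed, 15335, 39.1 and 0.956 in CBPWTp53ΔIEC, and 2046, 39.8 and 3775 in CBPAAp53ΔIEC crypts. These genes were thus lowest in the same group in which the Gsdmc copies were lowest, and their part in the results below was not tested.

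Gsdmc2, one of the main copies in the colon, was at 321, 258 and 342 TPM in the 3 CBPWTp53-floxed libraries and at 692, 524 and 733 TPM in the CBPAAp53-floxed libraries. In the ΔIEC groups it was at 414, 481 and 596 TPM with CBPWT and at 606, 325 and 561 TPM with CBPAA. The 3 libraries with wild type CBP and intact p53 were low, and only the second CBPAAp53ΔIEC library (325 TPM) fell within their range. Group means were 307 ± 43.5, 650 ± 111, 497 ± 92.3 and 497 ± 151 TPM (SD, n = 3 mice each).

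Gsdmc4 was the most abundant copy. Its levels were 546, 463 and 596 TPM in CBPWTp53-floxed and 1117, 702 and 1104 TPM in CBPAAp53-floxed crypts. After p53 deletion they were 655, 1159 and 1177 TPM in CBPWT and 1233, 805 and 854 TPM in CBPAA crypts. All 9 libraries of the other groups were above the highest CBPWTp53-floxed library, and those 3 groups overlapped one another. The means were 535 ± 67.2, 974 ± 236, 997 ± 296 and 964 ± 234 TPM (SD, n = 3 each).

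Gsdmc3 was lower than both. It reached 87.5, 99.2 and 111 TPM in CBPWTp53-floxed, 157, 109.3 and 172 TPM in CBPAAp53-floxed, 76.9, 153 and 171 TPM in CBPWTp53ΔIEC, and 169, 129 and 119 TPM in CBPAAp53ΔIEC crypts. In TPM the CBPWTp53-floxed group overlapped with CBPAAp53-floxed and CBPWTp53ΔIEC crypts and lay below the CBPAAp53ΔIEC crypts. Gsdmc itself was close to the floor, with 4 to 13 reads and 0.293 to 0.903 TPM per library, so that its fold changes carried large errors. The copy-like genes Gsdmcl1 and Gsdmcl2 stayed under 0.548 TPM, and the transcribed pseudogene Gsdmcl-ps was at 1.98 to 6.59 TPM.

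**Figure D1:**
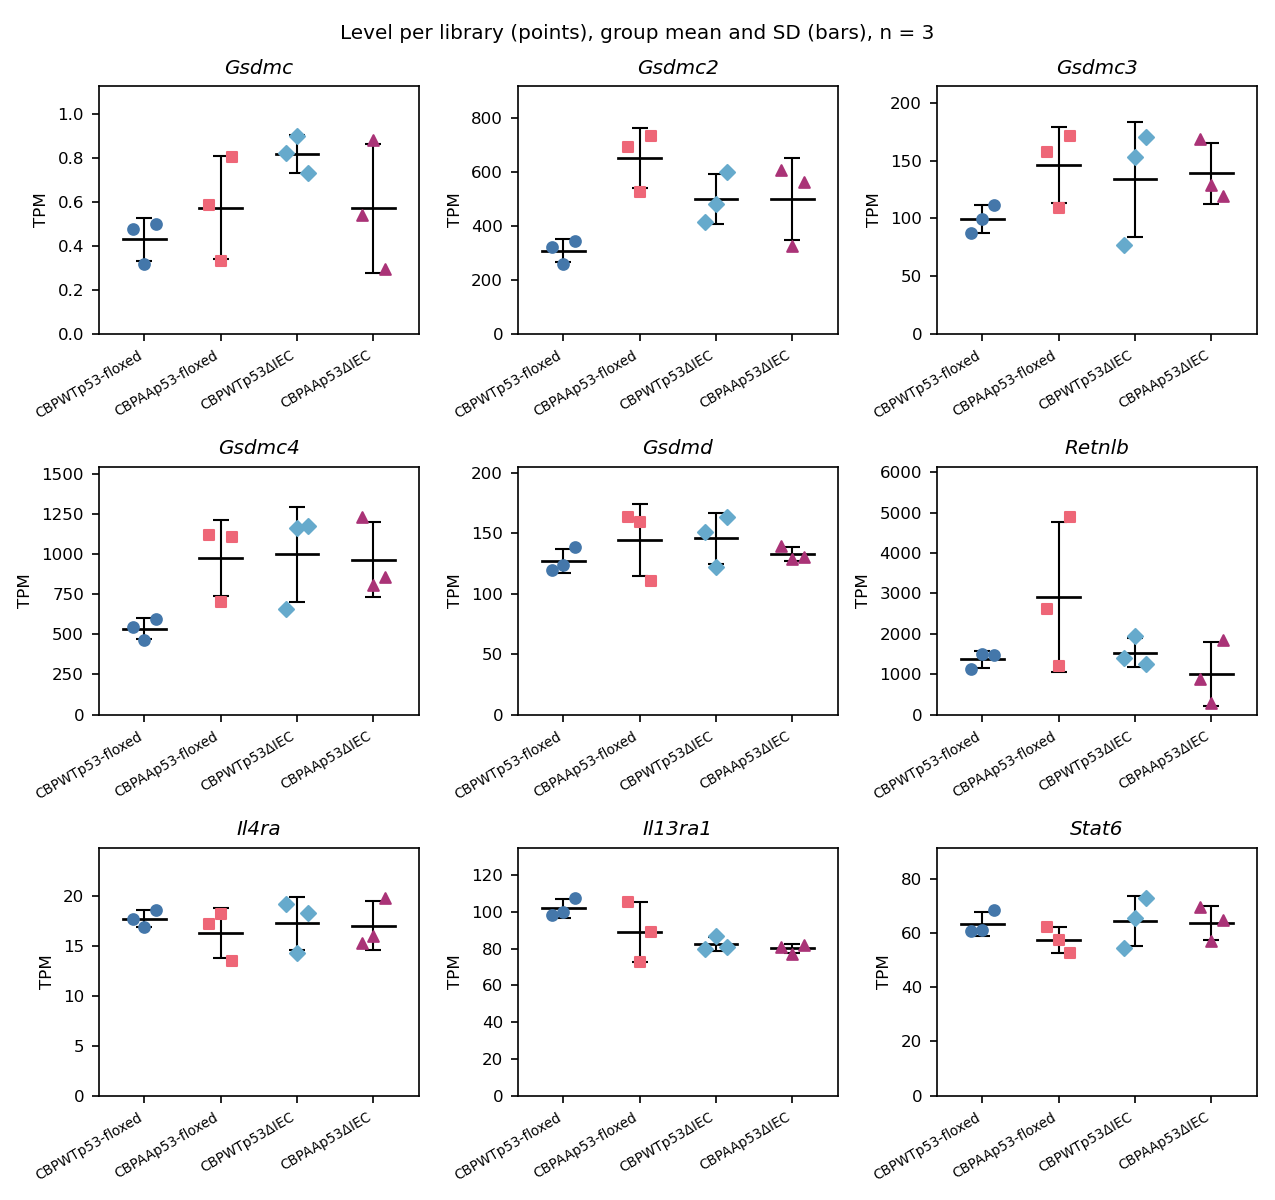
Level in TPM of each of the 9 genes in every library (points), with group means and SD (bars, n = 3 mice), for CBPWTp53-floxed, CBPAAp53-floxed, CBPWTp53ΔIEC and CBPAAp53ΔIEC crypts. Gsdmc4 stays at or under 596 TPM in CBPWTp53-floxed crypts and is at or above 655 TPM in all other libraries, while Retnlb spreads from 294 to 4904 TPM.

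A sum over Gsdmc2, Gsdmc3 and Gsdmc4 does not depend on how counted reads were split among these 3 copies. Reads left out of the counting, or assigned to Gsdmc or Gsdmcl-ps, would be missing from it. The summed level was 821, 694 and 851 CPM (counts scaled to library size and its TMM factor) in CBPWTp53-floxed crypts. In CBPAAp53-floxed crypts it was 1616, 1240 and 2030 CPM. In CBPWTp53ΔIEC crypts it was 1179, 1475 and 1452 CPM, and in CBPAAp53ΔIEC crypts 1639, 1029 and 1318 CPM. The CBPWTp53-floxed libraries were the 3 lowest of the 12, and the other groups overlapped. Relative to the CBPWTp53-floxed mean of 789 ± 83.7 CPM, the means were 2.06-fold (CBPAAp53-floxed, 1629 ± 395 CPM), 1.73-fold (CBPWTp53ΔIEC, 1369 ± 165 CPM) and 1.68-fold (CBPAAp53ΔIEC, 1329 ± 306 CPM; SD, n = 3 each). In TPM they were 1.88-fold, 1.73-fold and 1.70-fold in the same order. Of the summed counts, which ran from 9144 to 23534 per library, Gsdmc4 took 49.95% to 62.2%, Gsdmc2 27.5% to 41.4% and Gsdmc3 7.15% to 12.9%.

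With intact p53, the comparison that chose the genes, Gsdmc2 was 2.32-fold (log2 fold change 1.22 ± 0.22 SE), Gsdmc4 1.99-fold (0.99 ± 0.21) and Gsdmc3 1.62-fold (0.69 ± 0.21) higher in CBPAAp53-floxed than in CBPWTp53-floxed crypts. In CPM the groups did not overlap for these 3 genes, as for 9.75% of all 14610 genes in the same direction. No gene was called there (0.0% of 14610 genes), a call being an adjusted p below 0.05 together with a log2 fold change larger than 0.5 in size, and nothing is read from that share for the genes chosen on it. Retnlb was 2.39-fold higher with a large error (1.26 ± 0.68). Gsdmc stood at 0.51 ± 0.50 and Gsdmd at 0.30, while Il4ra (0.00), Il13ra1 (-0.07) and Stat6 (-0.02) were near 0. The plot of fold changes by comparison shows these values beside those of the other comparisons.

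**Figure D2:**
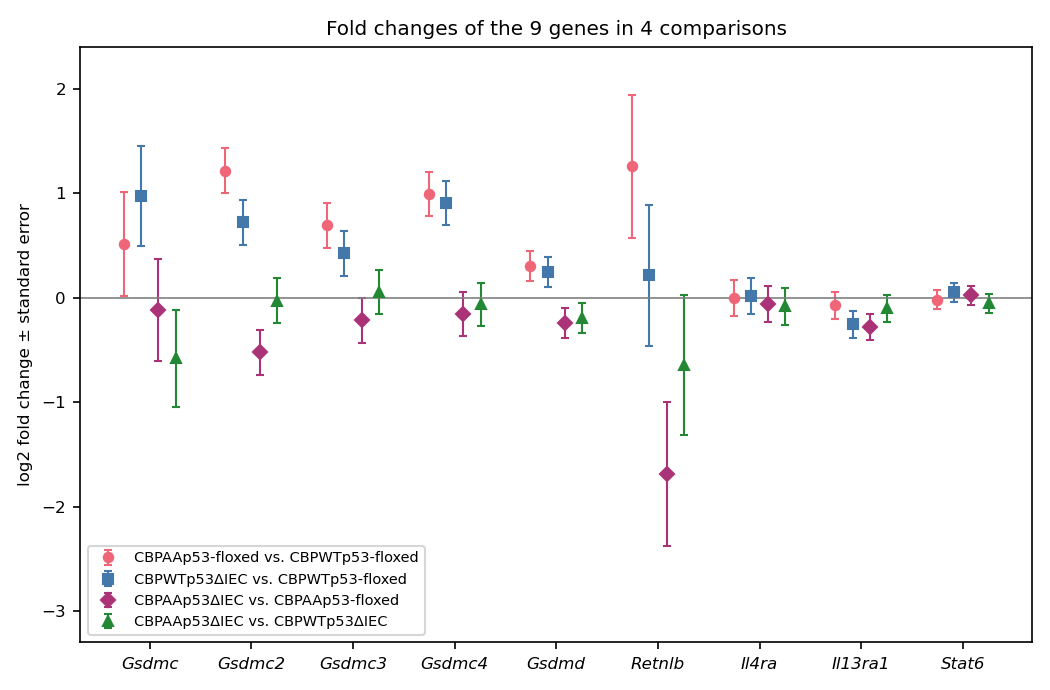
Log2 fold change with its standard error for each of the 9 genes in 4 comparisons (edgeR, 3 mice per group). Gsdmc2 is at 1.22 for CBPAA against CBPWT with intact p53, the comparison used to choose the genes, and at -0.03 for the same genotypes after p53 deletion.

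After p53 deletion, CBPAAp53ΔIEC and CBPWTp53ΔIEC crypts showed no difference that passed the test in any of the 9 genes. Gsdmc2 changed by -0.03 ± 0.21, Gsdmc3 by 0.05 ± 0.21 and Gsdmc4 by -0.07 ± 0.21 on the log2 scale (edgeR, adjusted p = 0.996, 0.994 and 0.993). None of the 9 genes passed edgeR's test, none had an unadjusted p under 0.05 and DESeq2 called none, against 0.00684% of the 14610 genes called (a single gene, Clec16a, named after its value was seen). None of the 9 had groups that did not overlap in CPM, against 9.26% of all genes. Of the 9 fold changes, 8 were below 0 with a median of -0.08, and the median of all genes was -0.01. The summed copies changed by -0.04 ± 0.20 (adjusted p = 0.994). As CPM, the group means differed by -39.9 CPM (exact two-sided permutation test, p = 1.0, where 3 against 3 mice allow no p under 0.1).

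The remaining genes in this comparison had larger errors or smaller values. Gsdmc stood at -0.58 ± 0.46, Gsdmd at -0.19 ± 0.14 and Retnlb at -0.64 ± 0.67 (edgeR, adjusted p = 0.985 for each). The receptor chains Il4ra (-0.08 ± 0.17) and Il13ra1 (-0.10 ± 0.13) and the transcription factor Stat6 (-0.05 ± 0.09) had the same adjusted p of 0.985. Markers of other cells were read in these libraries as well. All 12 leukocyte genes tested were above 0 in CBPAAp53ΔIEC crypts (median 0.34, none called by edgeR or DESeq2, none with an unadjusted p under 0.05), with summed levels of 16.7 to 36.3 TPM against 15.1 to 24.2 TPM. With intact p53, 10 of the 12 were above 0 in CBPAA crypts (median 0.27). Of the other lists after p53 deletion, 14 of 15 small intestine and Paneth cell genes (median -0.96), 13 of 15 surface colonocyte genes (median -0.26) and 9 of 10 epithelial genes (median -0.17) were below 0, none of them called. The small intestine and Paneth cell list went the other way by its median sum, 4151 TPM in CBPAAp53ΔIEC against 1289 TPM in CBPWTp53ΔIEC crypts. Its highest sum, 23360 TPM, was that of a CBPWTp53ΔIEC library. The part of these cells in the result was not tested.

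Deletion of p53 in CBPWT crypts, which shares the CBPWTp53-floxed libraries with the choosing comparison, gave values of 0.72 ± 0.22 for Gsdmc2 and 0.90 ± 0.21 for Gsdmc4, described without a p for that reason. Gsdmc3, a close copy whose reads cannot all be told from theirs, stood at 0.42 ± 0.21 and is described in the same way. Gsdmc was at 0.97 ± 0.48 (edgeR, adjusted p = 0.263). None of the other 6 genes passed edgeR's test, none of them had an unadjusted p under 0.05 and DESeq2 called none, while 3.15% of all 14610 genes were called. Gsdmd was at 0.25 ± 0.14 (adjusted p = 0.338) and Retnlb at 0.21 ± 0.67 (adjusted p = 0.889). Il13ra1 was at -0.25 ± 0.13 (adjusted p = 0.278), and its 3 CBPWTp53ΔIEC libraries were below the 3 CBPWTp53-floxed libraries in CPM, as in 14.7% of all genes. Gsdmc, Gsdmc2 and Gsdmc4 were higher without overlap, as were 16.1% of all genes.

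The same deletion in CBPAA crypts shares the CBPAAp53-floxed libraries with the choosing comparison. Gsdmc2 stood at -0.52 ± 0.21, Gsdmc4 at -0.16 and Gsdmc3 at -0.22, again without a p. None of the other 6 genes was called by edgeR or DESeq2, against 0.0274% of all genes (Trp53, Eda2r, Ephx1 and Gm10736, the last 3 named after their values were seen). Retnlb and Il13ra1 had an unadjusted p under 0.05, for which the share of all genes is not given here. Retnlb was lower by -1.69 ± 0.69 on the log2 scale (adjusted p = 0.382) and Il13ra1 by -0.28 ± 0.13 (adjusted p = 0.390). None of the 9 genes had groups without overlap in CPM, against 15.0% of all genes. The 2 p53 comparisons each share libraries with the CBP comparisons, so their values are set side by side only.

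The 4 libraries with more than 100 TPM of the Paneth cell gene Defa24 (1 CBPAAp53-floxed, 1 CBPWTp53ΔIEC and 2 CBPAAp53ΔIEC) were also left out, an alternative chosen after the data were seen. It leaves the CBPAAp53ΔIEC group with its second library alone, the lowest of all in Retnlb, which is assumed to vary like the other groups. With intact p53 the description of CBPAA against CBPWT crypts was then 1.34 ± 0.13 for Gsdmc2, 1.18 ± 0.11 for Gsdmc4 and 0.86 ± 0.11 for Gsdmc3. After p53 deletion the CBP genotypes stood at -0.66 ± 0.18 for Gsdmc2, -0.47 ± 0.16 for Gsdmc4 and -0.26 ± 0.15 for Gsdmc3, and at -2.39 ± 0.70 for Retnlb. These values rest on that second CBPAAp53ΔIEC library. It also had the lowest Gsdmc2 (325 TPM) and the lowest summed copies (1029 CPM) of the ΔIEC groups. With only that library left out, Gsdmc2 stood at 0.21 ± 0.17. For p53 deletion in CBPWT crypts, Gsdmc2 was at 0.71 ± 0.13, Gsdmc4 at 1.04 ± 0.11 and Gsdmc3 at 0.61 ± 0.11. Il13ra1 was at -0.37 ± 0.09 (edgeR, adjusted p = 0.00636), short of the fold needed for a call.

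**Figure D3:**
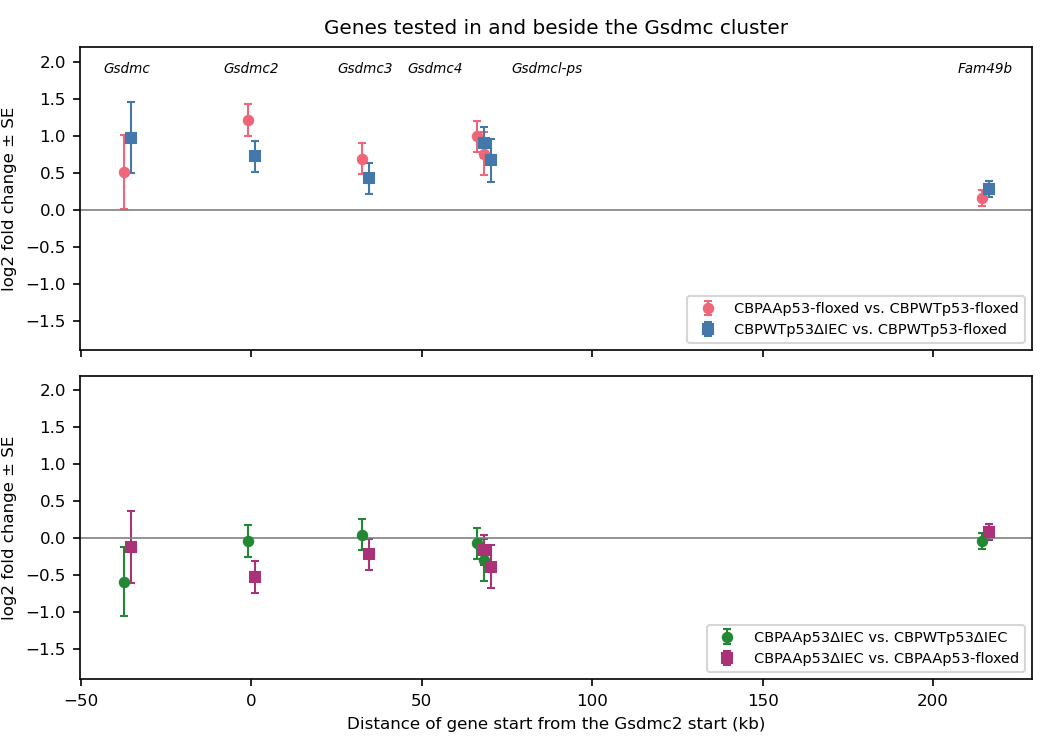
Log2 fold change with its standard error (y axis) against the distance of each gene's start from that of Gsdmc2 in kb (x axis). Tested genes from Gsdmc to Fam49b are drawn, and those farther out are not. The upper panel holds CBPAA against CBPWT (p53 intact) and p53 deletion in CBPWT, and the lower panel the remaining comparisons. Gsdmc2 and Gsdmc4 stand at 1.22 and 0.99 for CBPAA against CBPWT with intact p53, and the neighbour Fam49b at 0.15.

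Of 32 annotated genes in the cluster or within 1000 kb of its ends, from Gsdmc to Gsdmc4, 9 passed the filter. The nearest gene outside the copies, Fam49b, was at 0.15 ± 0.11 in CBPAA against CBPWT crypts with intact p53 and at 0.28 ± 0.11 after p53 deletion in CBPWT crypts. In the same order, Asap1, farther out, was at 0.29 ± 0.26 and 0.47 ± 0.26. The pseudogene Tsg101-ps was at 0.10 ± 0.57 and 0.27 ± 0.56. Adcy8, with a mean of only 0.40 TPM, was at -0.16 ± 1.16 and 2.38 ± 0.96. The plot of fold change along the cluster sets Fam49b beside the copies and leaves out Asap1, Tsg101-ps and Adcy8.

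Gsdmd, which unlike the copies lies outside the cluster, had a narrow range. It was at 119, 124 and 138 TPM in CBPWTp53-floxed, 164, 159 and 111 in CBPAAp53-floxed, 151, 122 and 164 in CBPWTp53ΔIEC and 139, 129 and 130 TPM in CBPAAp53ΔIEC crypts, and all 4 groups overlapped. Of the 16 tested genes among other gasdermins and the machinery of pyroptosis, 0 were called by edgeR in any of the 4 comparisons and 0 by DESeq2, with 0 to 2 of them at an unadjusted p under 0.05 and medians of -0.10 to 0.01. Over these comparisons edgeR called 0.0% to 3.15% of all 14610 genes, and DESeq2 called 2 to 871 of 14607. Pycard, the inflammasome adaptor, was at 170 to 218 TPM and Casp1, the protease that cuts Gsdmd, at 141 to 192 TPM.

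The receptor and its transcription factor had narrow ranges too. Il13ra1 was at 98.1, 100 and 108 TPM in CBPWTp53-floxed, 105, 72.8 and 89.2 in CBPAAp53-floxed, 80.0, 87.0 and 81.0 in CBPWTp53ΔIEC and 80.9, 77.2 and 82.2 TPM in CBPAAp53ΔIEC crypts. All 6 ΔIEC libraries were below the lowest CBPWTp53-floxed library, and the CBPAAp53-floxed libraries spanned both ranges. Il4ra lay between 13.5 and 19.9 TPM and Stat6 between 52.6 and 73.2 TPM over the 12 libraries, with overlapping groups. Of 15 other genes of IL-4 and IL-13 signalling, 0 were called by edgeR (against 0.0% to 3.15% of all genes) and 0 by DESeq2 in the 4 comparisons. From 0 to 3 were at an unadjusted p under 0.05, and medians were -0.11 to 0.04. Stat3 (28.1 to 43.0 TPM) and the kinase Jak1 (24.1 to 35.9 TPM) were the most abundant of them.

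The cytokines that drive the type 2 response were at or near the floor in these crypts. Il5, Il9 and Il13 had no read in any library and Il4 at most 1. The alarmins Il25, Il33 and Tslp had at most 6, 12 and 10 reads. Among 12 such genes 3 were tested, Areg (4.15 to 18.5 TPM), Crlf2 (2.15 to 6.77 TPM) and Il17rb (1.23 to 2.95 TPM). None was called by edgeR (against 0.0% to 3.15% of all genes) or DESeq2 in the 4 comparisons, with 0 or 1 at an unadjusted p under 0.05. Of 18 markers of type 2 leukocytes and mast cells, only Kit (23.7 to 45.1 TPM), which epithelial cells of the colon crypt also make, passed the filter, and Klrg1, Ccr3 and Prg2 had no read.

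Retnlb varied widely between mice of a group. It was at 1125, 1505 and 1474 TPM in CBPWTp53-floxed, 2621, 1203 and 4904 in CBPAAp53-floxed, 1397, 1937 and 1252 in CBPWTp53ΔIEC and 875, 294 and 1850 TPM in CBPAAp53ΔIEC crypts. The third CBPAAp53-floxed library was the highest and the second CBPAAp53ΔIEC library the lowest, and all 4 groups overlapped. The same 2 libraries were highest and lowest for Clca1, a chloride channel regulator secreted by goblet cells (1858 to 13554 TPM), and for Ang4, an antimicrobial ribonuclease of goblet and Paneth cells (299 to 11777 TPM).

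The relation of Retnlb to 15 type 2 target genes and to the 3 Gsdmc copies was followed across the 12 libraries, and differences between these correlations were not tested. Of 18 relations computed on log2 CPM after the values were seen, Clca1 had r = 0.93 and rho = 0.85 (permutation tests, adjusted p = 0.00162 and 0.0131) and Ang4 r = 0.94 and rho = 0.82 (permutation, adjusted p = 0.00162 and 0.0166). Without the 2 libraries farthest from the Retnlb median, r was 0.70 and 0.69. Fcgbp, a mucus protein, had r = 0.82 and rho = 0.76 (permutation, adjusted p = 0.00446 and 0.0313; r = 0.62 without those 2 libraries). Sprr2a3, a small proline-rich protein, had r = 0.82 and rho = 0.72 (permutation, adjusted p = 0.00446 and 0.0377; r = 0.54 without them). Pla2g4c passed by r alone (0.75, permutation, adjusted p = 0.0158) and Cish, which was lower where Retnlb was higher, by rho alone (-0.73, permutation, adjusted p = 0.0377). The other 9 targets passed neither and had r from -0.53 (Spdef) to 0.62 (Itln1), with Sprr2a1 at 0.06, Socs1 at 0.05, Arg1 at -0.19 and Agr2 at -0.35. For the copies, whose values in part chose the genes, r is a description: it was 0.60 for Gsdmc2 (rho = 0.41), 0.34 for Gsdmc3 and 0.31 for Gsdmc4. Without the 2 libraries the r of Gsdmc2 was 0.19, so that its relation to Retnlb rested on them. After subtracting group means, with those 2 libraries kept, r was 0.98 for Clca1, 0.95 for Ang4 and 0.88 for Fcgbp. The other targets ran from -0.58 (Socs1) to 0.80 (Sprr2a3). For the copies it was 0.78 for Gsdmc2, 0.49 for Gsdmc4 and 0.34 for Gsdmc3.

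**Figure D4:**
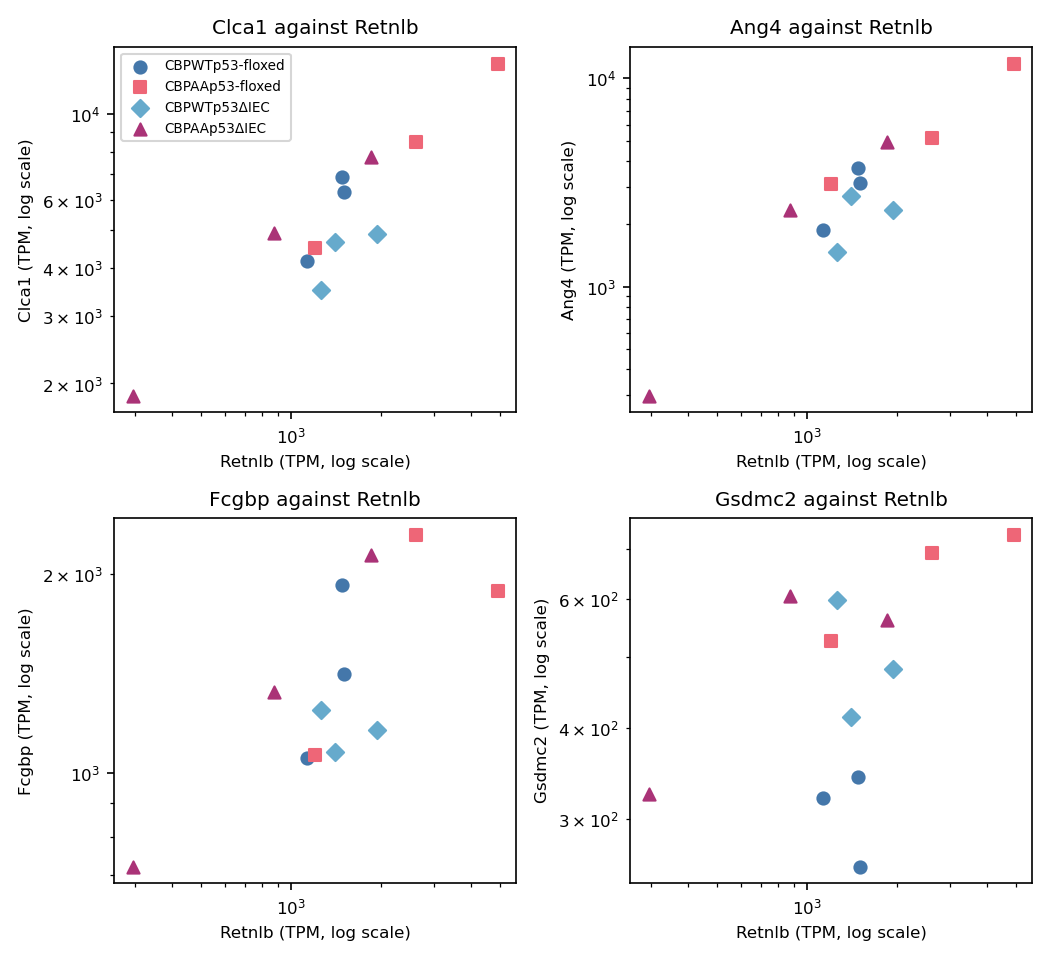
Level of Clca1, Ang4, Fcgbp and Gsdmc2 (y axes) against Retnlb (x axis) in TPM on log scales, 1 point per library, coloured by group. Clca1 and Ang4 rise along with Retnlb over the 12 libraries (r = 0.93 and 0.94 in log2 CPM), and Gsdmc2 has r = 0.60.

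As a list, 15 of 20 type 2 target genes were tested. None was called by edgeR in the 4 comparisons, where it called 0.0% to 3.15% of all genes. From 2 to 3 of the 15 were at an unadjusted p under 0.05. DESeq2 called 1, Sprr2a1 after p53 deletion in CBPWT crypts, where it called 871 of all 14607 genes. Their median log2 fold change was 0.33 for CBPAA against CBPWT with intact p53, -0.25 for the same genotypes after p53 deletion, 0.19 for p53 deletion in CBPWT and -0.01 in CBPAA crypts, where the medians of all genes lay between -0.01 and 0.01. Clca1 stood at 0.77 ± 0.53, 0.09 ± 0.53, -0.34 ± 0.53 and -1.02 ± 0.53 in the same order, and Ang4 at 1.38 ± 0.91, 0.13 ± 0.89, -0.32 ± 0.89 and -1.57 ± 0.91.

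Markers of the cells that carry this response were measured as well. None of 17 tuft cell genes and none of 15 goblet cell genes was called by edgeR or DESeq2 in the 4 comparisons, with 1 to 3 and 0 to 4 genes at an unadjusted p under 0.05. The share of all genes called by edgeR was 0.0% to 3.15%. Summed tuft cell markers, which include Sh2d6 and Rgs13, lay at 111 to 116 TPM in CBPWTp53-floxed and at 79.8 to 98.2 TPM in CBPWTp53ΔIEC crypts without overlap, where 14 of 17 genes were below 0 (median -0.29). Of all single genes, 14.7% were lower without overlap in CPM between these groups. In the CBPAA groups they were at 108 to 116 TPM with intact p53 and 89.1 to 114 TPM after its deletion. Summed goblet cell markers, which include Zg16, were between 21626 and 30942 TPM. Of 15 surface colonocyte genes, Slc9a3, the sodium-hydrogen exchanger of the apical membrane, fell by 1.17 ± 0.27 after p53 deletion in CBPWT crypts (edgeR, adjusted p = 0.0417), where 0.856% of all genes were called lower. This call was lost in 9 of 21 alternatives, most of them with 1 library left out. Counting either direction, DESeq2 called 4 of the 15 genes there (Car1, Clca4b, Slc9a3 and Slc6a14). Of all 14607 genes it called 871, 610 higher and 261 lower. Summed colonocyte markers, which include Car1 and Guca2a, were at 22399 to 26319 TPM in CBPWTp53-floxed and 28300 to 34205 TPM in CBPWTp53ΔIEC crypts. That sum did not overlap between the groups, while 16.1% of all single genes were higher without overlap in CPM. Of the 15 genes, 7 were above 0 and 8 below (median -0.01), with Car1 at 0.82 ± 0.21 (edgeR, adjusted p = 0.0524) and Guca2a at -0.09 ± 0.21. The part of tuft cells and colonocytes in the values of the copies was not tested.

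**Figure D5:**
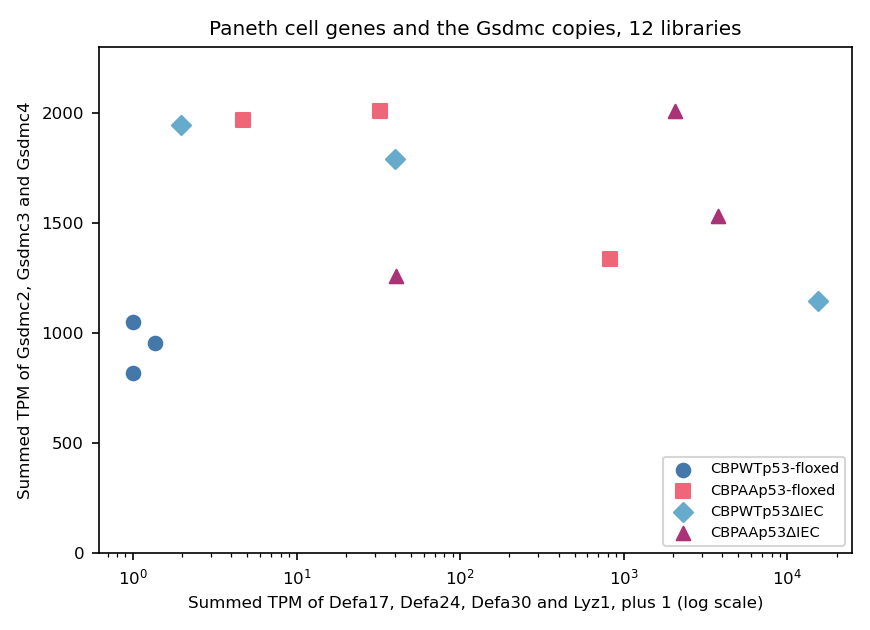
Summed TPM of Gsdmc2, Gsdmc3 and Gsdmc4 (y axis) against the summed TPM of the Paneth cell genes Defa17, Defa24, Defa30 and Lyz1 plus 1 (x axis, log scale), 1 point per library. The 3 CBPWTp53-floxed libraries lie at the lower left with Paneth sums of at most 0.361 TPM, and the library with the largest Paneth sum (15335 TPM) has 1146 TPM of the copies.

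The list of small intestine and Paneth cell genes, of which 15 were tested, had medians of 2.63 for CBPAA against CBPWT with intact p53 and 3.61 for p53 deletion in CBPWT crypts. For the CBP genotypes after p53 deletion the median was -0.96, with 14 of 15 genes below 0, and for p53 deletion in CBPAA crypts it was 1.05. EdgeR called none of them in the 4 comparisons (against 0.0% to 3.15% of all genes), with 0 to 5 at an unadjusted p under 0.05. DESeq2 called 3 and 7 in the first 2 of these comparisons, against 34 and 871 of all 14607 genes. Within the CBPWTp53ΔIEC group, the library with 15335 TPM of Paneth cell genes had the lowest summed Gsdmc level (1179 CPM), and the libraries with 39.1 and 0.956 TPM had 1475 and 1452 CPM. Among CBPAAp53-floxed crypts, the library with 823 TPM of Paneth cell genes also had the lowest sum (1240 CPM). In CBPAAp53ΔIEC crypts it was the library with the least Paneth cell signal that had the lowest sum, since the one with 39.8 TPM of Paneth cell genes had the lowest sum (1029 CPM) and those with 2046 and 3775 TPM had 1639 and 1318 CPM. The plot of Paneth cell genes against the copies shows all 3 groups. Stromal and endothelial markers summed to 3.08 to 5.26 TPM over the 12 libraries, and the 10 epithelial genes were all above 0 for CBPAA against CBPWT with intact p53 (median 0.22, none called by edgeR or DESeq2, 1 at an unadjusted p under 0.05).

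Over the 12 libraries, genes whose log2 CPM was most like the mean of Gsdmc2 and Gsdmc4 included Ptk2 (Pearson r = 0.87), Reg4 (0.86), Gsdmcl-ps (0.86), Gsdmc3 (0.84), Hspa9 (0.83), Hnrnpdl (0.83) and Ptbp2 (0.83). They are among the 8 highest of all genes tested, given as a description. Within groups, after subtraction of group means, r was 0.63 for Ptk2, 0.47 for Ptbp2, and higher for Gsdmcl-ps (0.75), Reg4 (0.73) and Gsdmc3 (0.71), and was 0.32 for Hspa9 and 0.21 for Hnrnpdl. Gsdmcl-ps and Gsdmc3 may share reads with the copies. Of the followed genes, Retnlb had r = 0.48, Gsdmc 0.40, Gsdmd 0.31, Stat6 0.29, Il13ra1 -0.16 and Il4ra -0.19.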

How the data were processed

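Poly(A) RNA of colonic crypts from 12 mice, 3 in each of 4 groups, was sequenced by the authors, who deposited 1 table with raw counts and TPM for 55471 genes. Per the labels, the counts were made with fastp 0.20.0, FastQC 0.11.9, HISAT2 2.1.0, SAMtools 1.9 and featureCounts of Subread 2.0.1 on GRCm38. The strand setting and the treatment of reads that map to several places are not given in the sources used here, and both could move values of the Gsdmc copies. The deposited TPM values were scaled to transcript length and library size by the authors. The table also holds 15 columns of the authors' own comparisons (log2 fold changes, p-values and adjusted p-values), which were not used, and 3320 rows without a symbol, which stayed in the library sizes and tests. Total counts ran from 11177430 to 18029125 per library, and no molecular identifiers were at hand to remove amplification duplicates.

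Counts were filtered with filterByExpr (minimum count 10, 14610 genes left), scaled by TMM and fitted over all 12 libraries in edgeR 4.0.16 with limma 3.58.1 (R 4.3.3). Quasi-likelihood F tests were Benjamini-Hochberg adjusted over all 14610 genes, and calls needed an adjusted p below 0.05 together with a log2 fold change larger than 0.5 in size. Counts of genes at an unadjusted p under 0.05 are a description, given without the share of all genes. DESeq2 1.42.0 served as an alternative, beside the filter, the samples fitted, a replicate block, a summed row for Gsdmc2, Gsdmc3 and Gsdmc4 and each library left out in turn. The edgeR script was tested on simulated data. Permutation tests used SciPy 1.17.1 with Python 3.11.15, pandas 2.3.3 and numpy 2.4.6 (100000 permutations for correlations). Coding sequences were aligned with Biopython 1.88, and plots drawn with matplotlib 3.10.9. CPM are counts scaled to the size of the library after filtering, multiplied by its TMM factor.

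The 9 genes, the gene lists and the tests were chosen with earlier results of these data known. Gsdmc2, Gsdmc3 and Gsdmc4 carry no p where libraries of the choosing comparison enter, a choice made for Gsdmc3 after its values were seen. Beside the 9 genes, the text names Trp53 and Crebbp, in each list up to 4 called genes by adjusted p or the 2 most abundant where none was called, and the 8 genes most like Gsdmc2 and Gsdmc4, of which 1 is not reported here. Other names were picked after values were seen. An alternative without the 4 libraries with more than 100 TPM of Defa24 was also added after seeing the data. Of the 55471 identifiers, 55144 matched the GENCODE vM21 annotation.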

Additional observations from a re-analysis of the deposited data

How the results depend on the processing

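Of 1552 alternative values of 75 log2 fold changes, 1491 kept their direction and their side of the threshold or, where no test was made, moved by less than 1 SD between replicates. In 23 of these untested values near 0 the sign turned all the same. The number of genes called was least stable. For CBPAAp53ΔIEC vs. CBPWTp53ΔIEC it was 1, against 2 with DESeq2 and 0 with the replicate block and with those 2 groups only, and 0 to 1 with 1 library left out. For CBPWTp53ΔIEC vs. CBPWTp53-floxed it was 460, against 871 with DESeq2, 723 with 2 groups only, 32 with the replicate block and 1 to 906 with 1 library left out: 906 without CBPWTp53ΔIEC replicate 1, and 1 to 7 without any CBPWTp53-floxed library or CBPWTp53ΔIEC replicate 2 or 3. For CBPAAp53ΔIEC vs. CBPAAp53-floxed it was 4, against 75 with DESeq2, 11 without the filter, 2 with the block, 1 with 2 groups only and 1 to 326 with 1 library left out (326 without CBPAAp53ΔIEC replicate 3). For CBPAAp53-floxed vs. CBPWTp53-floxed it was 0, against 34 with DESeq2, 3 without the filter and 0 to 2 with 1 library left out. The interaction of CBP genotype and p53 gave 1 (Gm10736, named after its value was seen), against 30 with DESeq2, 2 without the filter, 0 with the block and 0 to 1 with 1 library left out, and the fit of 2 groups cannot hold it. The cause of these changes in the number of calls was not tested.

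An alternative without the 4 libraries with Paneth cell genes was chosen after the data were seen, and it leaves 1 CBPAAp53ΔIEC library, assumed to vary like the other groups, which is the library lowest in Retnlb. It gave 8, 1729, 1053 and 42 calls in the 4 comparisons in the order above and 35 for the interaction. Clca1 passed the threshold there after p53 deletion in CBPAA crypts (-2.75, adjusted p = 0.0467, range 0.0467 to 0.791) and in no other alternative, and Gsdmc2 was at -1.29 and Gsdmc4 at -0.62 in that comparison. Between the CBP genotypes after p53 deletion it gave -1.12 for Clca1, -2.62 for Ang4, 0.041 for Il4ra, -0.26 for Gsdmc3 and 0.16 for Gsdmc. It gave -0.22 for Il4ra after p53 deletion in CBPWT, and 0.19 for Gsdmc and -0.15 for Stat6 after p53 deletion in CBPAA crypts, each with the sign turned.

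The call of Slc9a3 after p53 deletion in CBPWT crypts was lost without the filter (adjusted p = 0.106), with the block (0.0704) and without any CBPWTp53-floxed library, CBPWTp53ΔIEC replicate 2 or 3, CBPAAp53-floxed replicate 3 or CBPAAp53ΔIEC replicate 2 (0.0539 to 0.159), with log2 fold changes of -1.46 to -0.998 over all libraries left out.

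Near 0 the sign also turned elsewhere. Between the CBP genotypes after p53 deletion, the replicate block gave -0.14 for Clca1 and -0.39 for Ang4, and the summed row -0.043 in place of Gsdmc3. Without the filter, Il4ra was at -0.0039 after p53 deletion in CBPWT crypts. With 1 library left out, the ranges between the CBP genotypes after p53 deletion were -0.11 to 0.030 for Stat6, -0.21 to 0.0098 for Il13ra1, -0.46 to 0.48 for Clca1, -0.24 to 0.16 for Il4ra, -0.27 to 0.055 for Gsdmc4, -0.14 to 0.16 for Gsdmc3, -0.18 to 0.21 for Gsdmc2 and -0.85 to 0.66 for Ang4. For p53 deletion they were -0.22 to 0.17 for Il4ra in CBPWT and, in CBPAA crypts, -0.032 to 0.10 for Stat6, -0.0017 to 0.16 for Crebbp, -0.22 to 0.034 for Il4ra, -0.39 to 0.0072 for Gsdmc3, -0.36 to 0.034 for Gsdmc4 and -0.55 to 0.28 for Gsdmc. With intact p53 the CBP genotypes ranged from -0.16 to 0.038 for Il13ra1, -0.041 to 0.014 for Stat6 and -0.11 to 0.056 for Il4ra. The interaction turned sign for Il13ra1, Stat6, Il4ra and Trp53. The difference in summed CPM between the CBPAAp53ΔIEC and CBPWTp53ΔIEC means ran from -195 to 110 with 1 library left out. Without CBPAAp53ΔIEC replicate 2 it was 110 CPM, and without CBPWTp53ΔIEC replicate 2 or 3 it was 13.4 and 1.70 CPM.

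Replicate numbers did not pair the mice: of 18 pairs with the same number, 3 correlated over 0.1 (r from -0.53 to 0.55), and 3 of 12 libraries correlated best with their own number. Depth limited Gsdmc, with at most 13 reads.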
